A study of Mus musculus with 12 samples.

Results

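Cholesterol and fatty acid synthesis was followed through 35 genes in 2 mouse fibroblast lines that had received the Hedgehog ligand SHHN or vehicle. The genes were taken by symbol from the 24346 genes of the expression table. The list was chosen with earlier results of these data known, so its counts of calls are not independent of them. The 35 genes comprise 18 enzymes of sterol synthesis, 5 regulators of the SREBP transcription factors, 9 enzymes of fatty acid synthesis and 3 genes of sterol transport and efflux. Levels are FPKM, fragments per kilobase of transcript, scaled to the mapped fragments of each library, and 34 of the 35 genes passed a filter of 0.5 FPKM in at least 3 of the 12 libraries. The exception was Abcg1, a sterol exporter, with at most 0.02 FPKM in any library.

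The series compared how the lines respond to SHHN, the recombinant signalling fragment of Sonic hedgehog. NIH-3T3 is a fibroblast line from NIH/Swiss mouse embryos, and MLg is a fibroblast line from the lung of newborn ddY mice. Adherent cells of each line were held for 48 h in 0.5% serum with vehicle or with 1 µg/ml SHHN, which gave 4 groups of 3 libraries. Each line is 1 established line, so strain, age and tissue of origin cannot be told apart between them. The labels number the replicates but do not say whether they came from separate cultures, so the p-values measure the spread between these libraries only.

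Cells build cholesterol from acetyl-CoA through the mevalonate arm, which yields farnesyl pyrophosphate, and then through squalene, lanosterol and a series of demethylations, reductions and isomerisations. Most of these enzymes are transcribed under SREBP-2, encoded by Srebf2, while SREBP-1, encoded by Srebf1, acts more on fatty acid genes. Both precursors are carried from the endoplasmic reticulum to the Golgi by Scap for cleavage when sterols are low, and Insig1 and Insig2 hold Scap back when sterols are high. Cholesterol is also covalently attached to Hedgehog ligands during their maturation, and sterols bind the Hedgehog transducer Smoothened.

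Promoter windows show what these genes share outside their RNA levels. RefSeq windows (GRCm38.p6), each of 300 bases running from 250 before to 50 after an annotated start, were matched for 27 of the 35 genes and gave 35 windows. Abcg1, Fads1, Fdft1, Fdps, Scd1, Scd2, Sqle and Stard4 were not matched. The windows below are those of an early enzyme, of an isomerase whose response to SHHN differed between the lines, and of both Insig genes, which moved in opposite directions in MLg. Capitals mark the sterol response element letters TCACNCCAC and the NF-Y letters CCAAT on either strand, so that a match on the opposite strand reads ATTGG. Hmgcs1 lies at chr13:119690101-119690400 on the plus strand, Idi1 at chr13:8885356-8885655 on the plus strand, Insig1 at chr5:28071162-28071461 on the plus strand, and the most upstream of 3 Insig2 windows at chr1:121332540-121332839 on the minus strand.
Hmgcs1: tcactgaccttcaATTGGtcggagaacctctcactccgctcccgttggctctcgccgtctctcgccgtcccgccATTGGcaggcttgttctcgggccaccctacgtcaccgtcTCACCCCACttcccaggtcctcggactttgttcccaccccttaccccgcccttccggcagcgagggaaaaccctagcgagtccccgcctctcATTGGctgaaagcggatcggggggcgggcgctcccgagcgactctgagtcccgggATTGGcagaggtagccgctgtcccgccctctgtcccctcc
Idi1: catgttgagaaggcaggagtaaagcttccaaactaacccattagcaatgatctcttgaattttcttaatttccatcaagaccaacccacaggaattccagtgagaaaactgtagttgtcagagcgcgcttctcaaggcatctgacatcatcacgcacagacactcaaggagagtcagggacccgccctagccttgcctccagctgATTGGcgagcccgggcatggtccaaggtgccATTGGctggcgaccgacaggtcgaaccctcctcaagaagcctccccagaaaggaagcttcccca
Insig1: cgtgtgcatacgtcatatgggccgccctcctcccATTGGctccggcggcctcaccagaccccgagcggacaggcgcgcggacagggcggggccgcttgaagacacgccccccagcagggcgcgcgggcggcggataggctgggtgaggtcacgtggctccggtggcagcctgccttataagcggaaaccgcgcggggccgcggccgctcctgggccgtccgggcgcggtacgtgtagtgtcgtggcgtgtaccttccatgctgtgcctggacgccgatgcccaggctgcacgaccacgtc
Insig2: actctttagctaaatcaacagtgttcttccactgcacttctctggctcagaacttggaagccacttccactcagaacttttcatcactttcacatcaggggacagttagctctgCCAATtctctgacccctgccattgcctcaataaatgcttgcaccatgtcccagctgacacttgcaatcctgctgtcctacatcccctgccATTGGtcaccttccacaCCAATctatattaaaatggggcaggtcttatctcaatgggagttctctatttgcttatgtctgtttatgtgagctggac

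Sterol enzymes had 18 matched windows, which came from 15 of the 18 genes, some with more than 1 window. The CCAAT letters stood in 14 of these 18 windows, 77.78%, against 37.41% of all 32851 RefSeq mouse windows. The GC box letters GGGCGG stood in 15 of those 18 windows, 83.33%, against 35.66% of all windows. Among fatty acid enzymes CCAAT and GGGCGG each stood in 3 of 6 windows, and among SREBP regulators in 5 and 8 of 10 windows of 5 genes. Over all 35 windows the shares were 62.86% and 77.14%. Hmgcs1 had 4 CCAAT matches, Idi1 had 2 and Insig1 had 1. The Insig2 window printed above had 3 CCAAT matches and the other 2 Insig2 windows had 0. The TCACNCCAC letters were found in 1 of the 35 windows, at position -137 of Hmgcs1, and in 1.242% of all windows. Only these exact letters were counted, N being any base, so that TCACCCCAT in the Srebf2 window was not. The E-box letters CACGTG were in 7 of the 35 windows, 20%, against 7.15% of all. The GLI letters GACCACCCA were in 0 of the 35 windows and in 0.2527% of all. All motifs were searched on both strands, and each was counted whether or not it overlapped another. A match describes the letters and is not evidence of binding.

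Library totals ran from 470218 to 659862 FPKM. In NIH-3T3 every control total (545656 to 659862 FPKM) lay above every SHHN total (494531 to 542742 FPKM), while in MLg the totals overlapped. The main fit used the FPKM values without further scaling. Spearman correlations over all 24346 genes were 0.969 to 0.977 between replicates. The Hedgehog target Gli1 was between 0.0840 and 0.906 FPKM in the 6 vehicle libraries and between 113 and 151 FPKM in the 6 SHHN libraries. All 10 genes of a proliferation list rose in both lines, their summed level going from 126 to 154 FPKM up to 584 to 650 FPKM in NIH-3T3 and from 175 to 240 up to 878 to 1016 FPKM in MLg. Of 9 fibroblast markers, 7 fell and 1 rose in NIH-3T3, and 2 fell in MLg. In NIH-3T3 the sum of these markers went from between 13280 and 14637 FPKM to between 8443 and 10468 FPKM. Of all tested genes, 16.6% were called higher and 14.8% lower in NIH-3T3, and 12.8% and 10.0% in MLg. Of 5 endothelial markers only Cdh5 passed the filter, and only through the SHHN libraries, with at most 0.103 FPKM in any control, 2.10 to 13.9 FPKM in NIH-3T3 SHHN and 4.63 to 5.41 FPKM in MLg SHHN. The part of these lists in the results below was not tested. Adipocyte markers, which would bring their own lipid genes, passed the filter in 0 of 6 cases and epithelial markers in 0 of 5, and 1 of 5 leukocyte markers passed and was not called.

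One library of each line stood apart in these genes. In NIH-3T3 SHHN replicate 1 the 18 sterol enzymes summed to 1507 FPKM, while SHHN replicates 2 and 3 gave 881 and 1058 FPKM and the NIH-3T3 controls lay between 1064 and 1141 FPKM. In MLg control replicate 1 they summed to 666 FPKM, while the other MLg controls gave 924 and 853 FPKM and the MLg SHHN libraries gave 1257, 1211 and 1344 FPKM. The SHHN counts of calls for all members, sterol enzymes and fatty acid enzymes are given with and without the library of the same line. In these bulk samples, fewer cells of a type and less RNA per cell cannot be told apart.

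With SHHN, 18 of the 34 tested genes rose and 2 (Insig2 and Scap) fell in MLg, and 14 were not called, by limma's moderated test with Benjamini-Hochberg adjustment over all 12379 tested genes. The background in MLg was 12.8% of all tested genes called higher and 10.0% called lower, 22.8% in all. In NIH-3T3, 1 gene rose and 1 fell, while 16.6% of all tested genes were called higher and 14.8% lower, 31.4% in all. At an unadjusted p below 0.05 the NIH-3T3 counts were 8 higher and 2 lower, against 2666 and 2459 of all 12379 tested genes. The same threshold gave 2153 higher and 1973 lower of all tested genes in MLg. These are the background of the unadjusted counts given below. Fads2 was the only gene called higher in both lines, and Insig2 was the only gene called lower in both. Leaving out MLg control replicate 1 lowered the MLg count of higher genes from 18 to 10. Leaving out NIH-3T3 SHHN replicate 1 raised the NIH-3T3 count of lower genes from 1 to 4, and leaving out MLg control replicate 1 raised it to 2. The NIH-3T3 count of higher genes went from 1 to 4 without NIH-3T3 SHHN replicate 3, to 3 without NIH-3T3 control replicate 2, and to 2 without MLg control replicate 2 or NIH-3T3 control replicate 1 or 3.

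**Figure D1:**
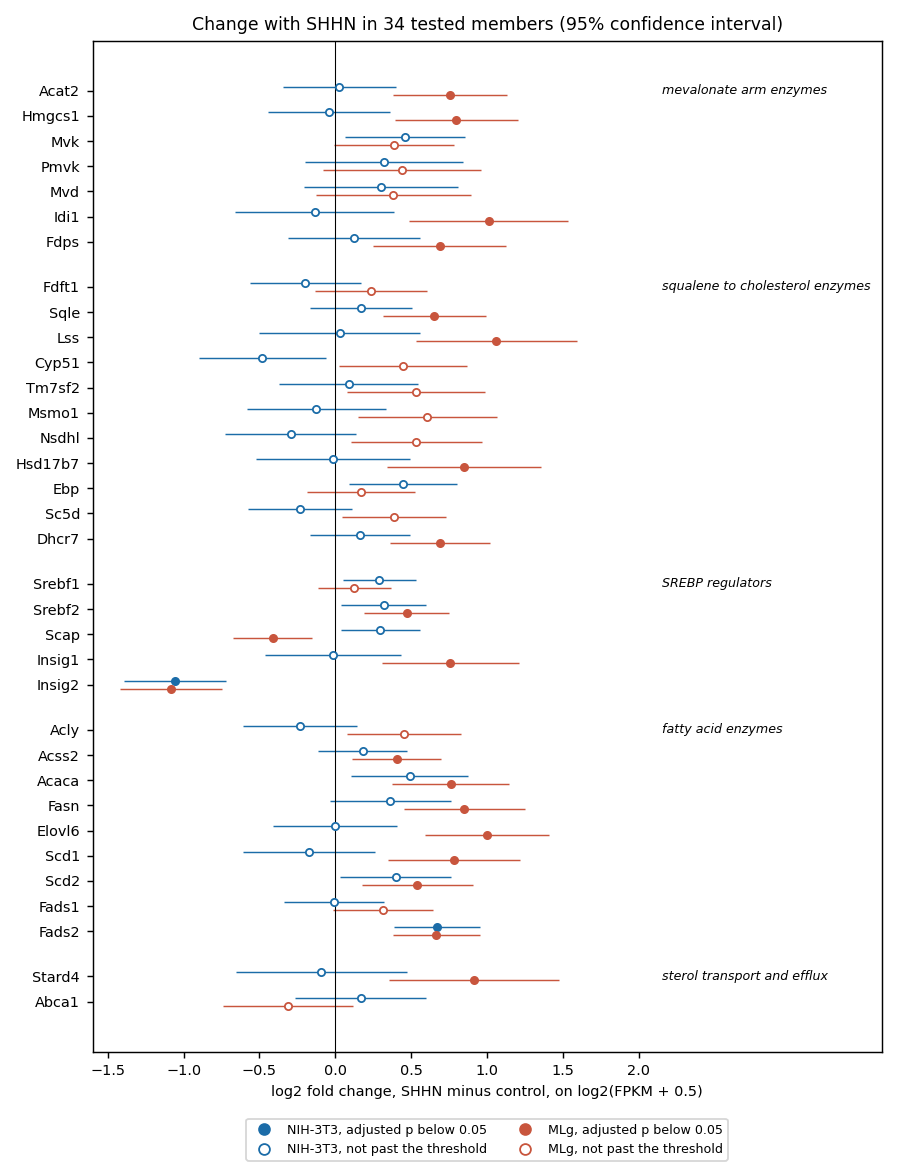
Change with SHHN of the 34 tested genes on the log2(FPKM + 0.5) scale (x axis) by gene and role (y axis). Points are limma estimates and bars their 95% confidence intervals, blue for NIH-3T3 and red for MLg, filled where the adjusted p is below 0.05. In MLg 18 filled points lie to the right of 0 and 2 to the left, against 1 and 1 in NIH-3T3.

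Enzymes of sterol synthesis were higher in MLg with SHHN. Of the 18, 8 rose and 0 fell, where 12.8% of all tested genes were called higher. The fold change was positive for all 18, with a median of 0.57 on the log2 scale against -0.00 for all tested genes. In 15 of the 18, every SHHN library lay above every MLg control, a pattern that 21.4% of all tested genes showed. In NIH-3T3, limma called 0 of the 18 in either direction, with 2 higher and 1 lower at an unadjusted p below 0.05, and the median log2 fold change was 0.03. Without MLg control replicate 1, 6 of the 18 were called higher in MLg and the MLg median was 0.43. The MLg count was also 6 without MLg SHHN replicate 3. Without NIH-3T3 SHHN replicate 1, 2 of the 18 were called lower in NIH-3T3 and the NIH-3T3 median was -0.18. Without NIH-3T3 control replicate 2, Mvk (0.58, adjusted p = 0.0360) and Ebp (0.59, adjusted p = 0.0127) were called higher in NIH-3T3. Fold changes here are differences on the log2(FPKM + 0.5) scale, which understates changes of weakly expressed genes.

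The mevalonate arm opens with Acat2, the cytosolic thiolase that joins acetyl-CoA units, and Hmgcs1, which makes HMG-CoA. Acat2 went from 61.1, 89.7 and 75.6 FPKM in the MLg controls to 130, 117 and 132 FPKM with SHHN (log2 fold change 0.75 ± 0.17 SE, adjusted p = 0.00589). Hmgcs1 went from 55.6, 75.0 and 89.3 FPKM to 117, 119 and 142 FPKM (0.80 ± 0.19, adjusted p = 0.00679). In both genes the SHHN libraries of MLg lay above all MLg controls. In NIH-3T3 the SHHN and control libraries overlapped: Hmgcs1 was 113, 104 and 131 FPKM in controls and 141, 89.2 and 112 FPKM with SHHN (-0.04 ± 0.19, adjusted p = 0.898).

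Idi1, the isomerase of the isoprenoid unit (chr13:8885606-8892396, GRCm38.p6), was 34.7, 52.7 and 60.3 FPKM in the MLg controls and 81.9, 94.8 and 118 FPKM with SHHN. The groups did not overlap, and the ratio of their means was 1.99 (log2 fold change 1.01 ± 0.24 SE, adjusted p = 0.00771). NIH-3T3 had 69.3, 62.4 and 80.9 FPKM without and 92.4, 46.5 and 61.0 FPKM with SHHN, with the highest and the lowest value both among the SHHN libraries. Fdps, which makes farnesyl pyrophosphate, was the most abundant sterol enzyme in every group, at 184 ± 31.0 FPKM (SD, n = 3) in MLg controls and 294 ± 13.2 FPKM (SD, n = 3) in MLg SHHN. Its rise of 0.69 (adjusted p = 0.0253) had an adjusted p of 0.0510 when replicate number was a block, and of 0.0554 to 0.0927 without MLg control replicate 1 or 3 or any 1 of the MLg SHHN libraries. The 3 steps between, carried out by Mvk, Pmvk and Mvd, which phosphorylate and decarboxylate mevalonate, had MLg fold changes of 0.38 to 0.44 and adjusted p between 0.163 and 0.293.

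From squalene onward, 4 of 11 enzymes rose in MLg, where 12.8% of all tested genes were called higher. Sqle, the squalene epoxidase and a rate-limiting step, went from 54.2, 79.5 and 73.3 FPKM to 112, 103 and 107 FPKM (log2 fold change 0.65 ± 0.16 SE, adjusted p = 0.0078). Lss, which closes the rings to lanosterol, went from 15.6, 23.8 and 25.2 FPKM to 48.1, 40.7 and 45.2 FPKM (1.06 ± 0.25, adjusted p = 0.006), the largest rise among the 34 tested genes in MLg on that scale. Both groups stood clear of each other in these 2 genes. Dhcr7, the reductase of a last step to cholesterol, whose loss causes Smith-Lemli-Opitz syndrome, went from 20.4, 21.2 and 18.7 FPKM to 34.6, 29.5 and 34.1 FPKM (0.69 ± 0.15, adjusted p = 0.00443). Hsd17b7, a ketosteroid reductase of the pathway, rose from 14.9 ± 4.96 to 26.2 ± 1.75 FPKM (SD, n = 3 each; 0.85 ± 0.24, adjusted p = 0.0185), but had an adjusted p of 0.0836 without MLg control replicate 1 and of 0.0712 without MLg SHHN replicate 3. In NIH-3T3, Lss was 28.8, 24.1 and 27.9 FPKM in controls and 44.5, 21.0 and 21.8 FPKM with SHHN. SHHN replicate 1 alone was above the NIH-3T3 controls there, and the other SHHN libraries were below them.

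The remaining 7 enzymes of this stretch did not pass the test in MLg, and 4 of them did under other settings. Msmo1, a methylsterol oxidase, had the value nearest the threshold (0.61 ± 0.21 SE, adjusted p = 0.0562) and an adjusted p of 0.0184 with the replicate block. Nsdhl, Tm7sf2 and Sc5d, which act on sterol intermediates, had fold changes of 0.53, 0.53 and 0.39 with adjusted p of 0.0746, 0.0933 and 0.102. Without NIH-3T3 SHHN replicate 1, which enters the shared estimate of spread, the adjusted p in MLg were 0.0368 for Msmo1, 0.0287 for Nsdhl and 0.0167 for Tm7sf2. With the 6 MLg libraries fitted alone they were 0.0457, 0.0443 and 0.0289, and 0.0404 for Sc5d. Fdft1, the squalene synthase at the branch point, had 0.24 (adjusted p = 0.382), and Ebp, the sterol isomerase, had 0.17 (adjusted p = 0.535). The 95% interval ran from -0.13 to 0.60 for Fdft1 and from -0.19 to 0.52 for Ebp.

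Cyp51, the lanosterol demethylase, had opposite signs in the lines. In NIH-3T3 it was 73.4, 74.8 and 88.8 FPKM in controls and 71.7, 44.9 and 55.2 FPKM with SHHN. All SHHN libraries were below all controls, SHHN replicate 1 by a small margin, and the fold change of -0.48 ± 0.19 SE did not pass the test (adjusted p = 0.0778). In MLg it was 10.1, 15.8 and 17.6 FPKM in controls and 19.6, 18.2 and 20.5 FPKM with SHHN (0.44 ± 0.19, adjusted p = 0.128). Without NIH-3T3 SHHN replicate 1 the NIH-3T3 fold change of Cyp51 was -0.65 with an adjusted p of 0.0282 (0.0325 without MLg control replicate 1, at -0.48), and Nsdhl (-0.53, adjusted p = 0.0433) and Acly, the citrate lyase that supplies acetyl-CoA (-0.48, adjusted p = 0.0142), were also called lower in NIH-3T3.

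**Figure D2:**
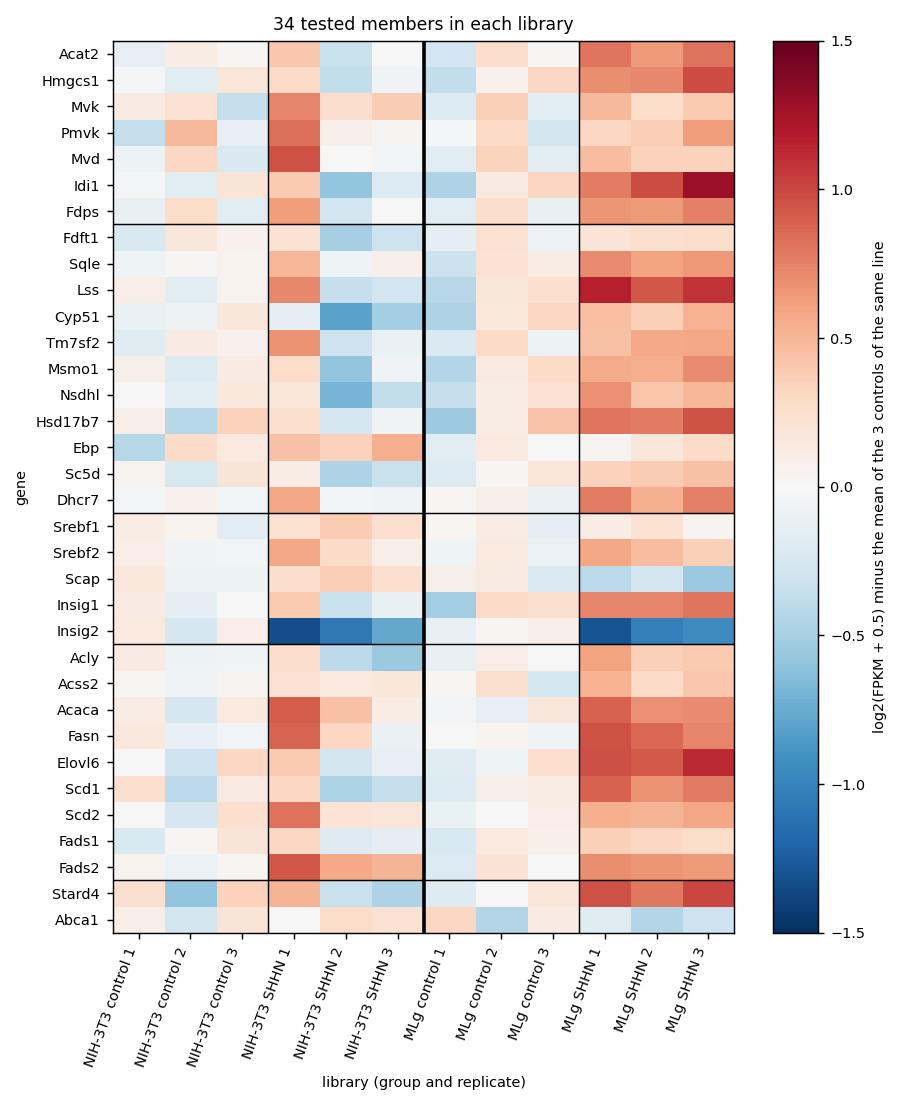
Each of the 34 tested genes (rows, by role) in each of the 12 libraries (columns), as log2(FPKM + 0.5) minus the mean of the 3 controls of the same line, from blue (lower) to red (higher). The 3 MLg SHHN libraries are alike, with sterol enzyme medians of 0.61, 0.55 and 0.64, while the NIH-3T3 SHHN libraries have medians of 0.42, -0.32 and -0.05.

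The 5 SREBP regulators did not move as a group. In MLg 2 rose and 2 fell, and in NIH-3T3 0 rose and 1 fell, with 3 higher and 1 lower at an unadjusted p below 0.05. Of all tested genes, 12.8% were called higher and 10.0% lower in MLg, and 16.6% and 14.8% in NIH-3T3. Srebf2 was 78.9, 91.5 and 77.7 FPKM in MLg controls and 124, 114 and 106 FPKM with SHHN (log2 fold change 0.47 ± 0.13 SE, adjusted p = 0.0178). Without MLg control replicate 1 or 3, or MLg SHHN replicate 1 or 2, its adjusted p lay between 0.0504 and 0.0776. In NIH-3T3 it was 118, 106 and 107 FPKM without and 166, 135 and 117 FPKM with SHHN (0.32 ± 0.13, adjusted p = 0.0794). Srebf1 had fold changes of 0.29 (adjusted p = 0.0658) in NIH-3T3 and 0.12 (adjusted p = 0.492) in MLg.

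Insig2, 1 of the 2 sterol-sensing anchors of Scap (chr1:121304353-121332662), fell in both lines. In NIH-3T3 it went from 34.1, 25.8 and 33.2 FPKM to 12, 14.4 and 17.8 FPKM, and in MLg from 35, 38.6 and 40.1 FPKM to 15.2, 18.4 and 19.5 FPKM. The highest SHHN library was below the lowest control in each line. The ratio of means was 0.47 in both, with log2 fold changes of -1.06 ± 0.16 SE in NIH-3T3 and -1.08 ± 0.16 SE in MLg (adjusted p = 0.000147 in each). The difference between the lines was 0.03, with a 95% interval from -0.45 to 0.50.

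Insig1, its paralog and itself an SREBP target, did not follow it. In MLg it rose from 36.7, 64.4 and 62.5 FPKM to 88.1, 88.5 and 92.9 FPKM (log2 fold change 0.76 ± 0.21 SE, adjusted p = 0.0173), with all SHHN libraries above all controls. MLg control replicate 1 was the low control, and without it the fold change was 0.50 (adjusted p = 0.0715). Without MLg SHHN replicate 3 the adjusted p was 0.0614. NIH-3T3 libraries had 85.3, 71.4 and 78.6 FPKM without and 103, 61.8 and 72.4 FPKM with SHHN, where the groups overlapped (-0.02 ± 0.21, adjusted p = 0.967).

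Scap, the escort protein of both SREBPs (chr9:110333288-110384949), fell in MLg from 67.6, 69.9 and 54.8 FPKM to 48.0, 52.4 and 43.3 FPKM (log2 fold change -0.41 ± 0.12 SE, adjusted p = 0.0239). All SHHN libraries lay below all controls. In NIH-3T3 it was 29.9, 25.3 and 25.5 FPKM in controls and 32.4, 34.6 and 32.1 FPKM with SHHN, all above the controls, with a fold change of 0.30 ± 0.12 that did not pass the test (adjusted p = 0.0784, 0.0457 without NIH-3T3 control replicate 1). In MLg the call was lost without MLg control replicate 1 or 2 or MLg SHHN replicate 1 or 3, with adjusted p between 0.0641 and 0.116.

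**Figure D3:**
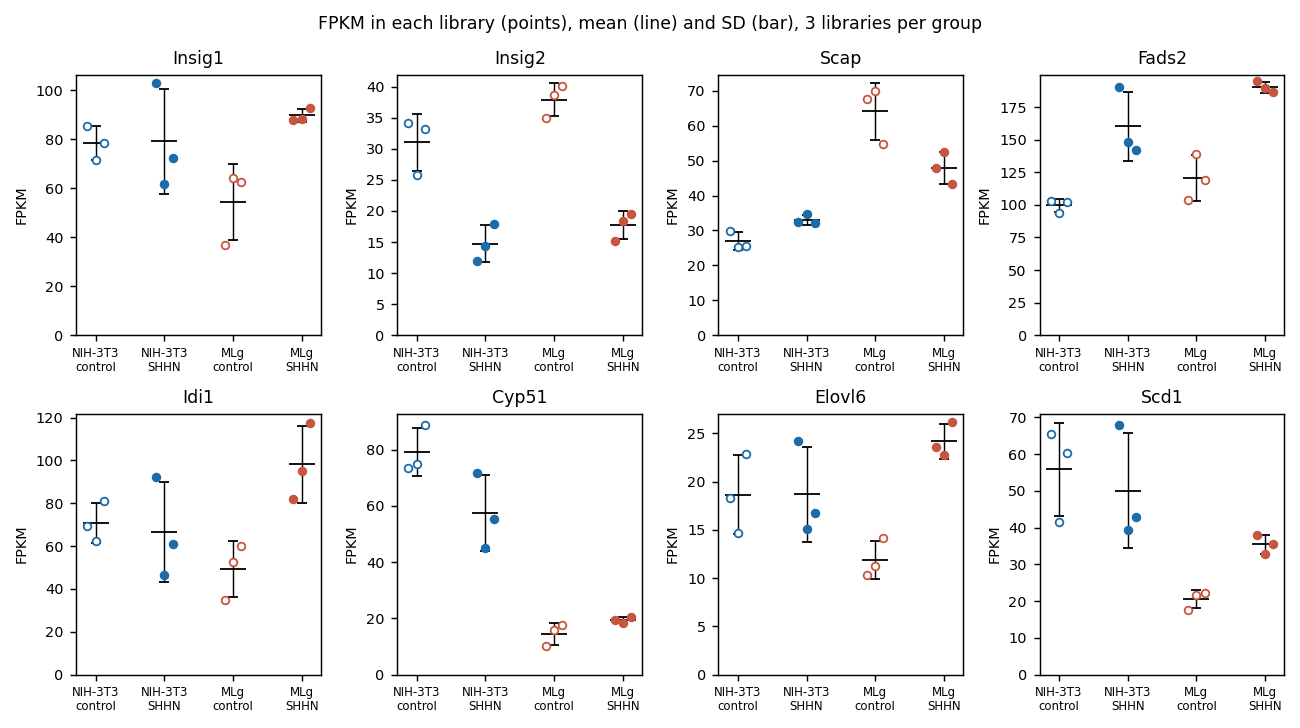
FPKM (y axis, from 0) of 8 genes in each library (points) of the 4 groups (x axis), with the mean (line) and SD (bar) of 3 libraries. Insig2 lies lower with SHHN in both lines and Fads2 higher in both, Scap is lower with SHHN in MLg (64.1 to 47.9 FPKM) and Cyp51 stands higher in NIH-3T3 than in MLg in every group.

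Enzymes of fatty acid synthesis rose in MLg in 7 of 9 cases, with 0 lower and a median log2 fold change of 0.67. Of all tested genes, 12.8% were called higher in MLg and 16.6% in NIH-3T3. Without MLg control replicate 1 the count of higher genes was 4. In all 9 every SHHN library of MLg was above every control, a pattern that 21.4% of all tested genes showed. In NIH-3T3 1 of 9 rose, 0 fell, and the median was 0.18. Without NIH-3T3 SHHN replicate 1 the NIH-3T3 median was 0.11 and 1 of 9, Acly, was called lower. Acaca, the carboxylase that makes malonyl-CoA, went from 14.4, 13.5 and 16.7 FPKM in MLg controls to 27.8, 24.2 and 24.5 FPKM (0.76 ± 0.18 SE, adjusted p = 0.00686). In NIH-3T3 its fold change was 0.49 ± 0.18 (adjusted p = 0.0534), with SHHN libraries at 26.1, 18.7 and 14.8 FPKM.

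Fasn, the fatty acid synthase, went from 80.2, 82.3 and 76.5 FPKM in MLg controls to 155, 145 and 132 FPKM with SHHN (log2 fold change 0.85 ± 0.19 SE, adjusted p = 0.00408). NIH-3T3 values were 74.8, 61.5 and 65.3 FPKM without and 123, 83.4 and 62.4 FPKM with SHHN (0.36 ± 0.19, adjusted p = 0.161). The MLg groups were well apart, and in NIH-3T3 the third SHHN library was among the controls. Without NIH-3T3 SHHN replicate 3, Fasn (0.59, adjusted p = 0.0135), Acaca (0.68, adjusted p = 0.0106) and Srebf2 (0.43, adjusted p = 0.0256) were called higher in NIH-3T3.

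Elovl6, which elongates palmitate to stearate (chr3:129532386-129638495), went from 10.3, 11.3 and 14.1 FPKM to 23.6, 22.8 and 26.2 FPKM in MLg (log2 fold change 1.00 ± 0.19 SE, adjusted p = 0.00147). The NIH-3T3 values were 18.4, 14.7 and 22.9 FPKM without and 24.2, 15.0 and 16.7 FPKM with SHHN, with a fold change of -0.00 ± 0.19. Only the MLg groups were separate. Scd1, a stearoyl-CoA desaturase that makes oleate (chr19:44394450-44407709), went from 17.7, 21.6 and 22.2 FPKM to 37.9, 32.9 and 35.4 FPKM in MLg (0.78 ± 0.20, adjusted p = 0.0123, 0.0567 without MLg control replicate 1). In NIH-3T3 it was 65.4, 41.5 and 60.4 FPKM without and 67.9, 39.4 and 42.8 FPKM with SHHN (-0.17 ± 0.20, adjusted p = 0.567). Scd2, a close copy of Scd1 with which it may share reads, had fold changes of 0.54 in MLg (adjusted p = 0.0339, 0.0725 to 0.107 without any 1 of MLg control replicates 1 and 2 and the MLg SHHN libraries) and 0.40 in NIH-3T3 (adjusted p = 0.091), and its levels are uncertain to that extent.

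Fads2, the desaturase that opens polyunsaturated fatty acid synthesis (chr19:10062765-10101503), rose in both lines. It went from 103, 94.0 and 102 FPKM to 191, 148 and 142 FPKM in NIH-3T3 and from 104, 139 and 119 FPKM to 195, 189 and 186 FPKM in MLg. The groups did not overlap in either line. Log2 fold changes were 0.67 ± 0.13 SE in each (adjusted p = 0.00155 in NIH-3T3 and 0.00209 in MLg), and the difference was 0.01 with a 95% interval from -0.40 to 0.41. Fads1, the next desaturase and its neighbour on chromosome 19, had fold changes of -0.01 (adjusted p = 0.978) and 0.31 (adjusted p = 0.175). Of the genes that supply acetyl-CoA, Acly had 0.45 in MLg (adjusted p = 0.0824, 0.0116 without NIH-3T3 SHHN replicate 1 and 0.0169 with the MLg libraries fitted alone), and Acss2, which activates acetate, had 0.40 (adjusted p = 0.0471, 0.0805 with the replicate block). The Acss2 call was lost in 16 of 22 alternatives, with adjusted p between 0.0535 and 0.169.

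Of the sterol transport genes, Stard4, which moves cholesterol between membranes and is an SREBP target, rose in MLg from 10.3, 11.9 and 13.6 FPKM to 23.4, 20.9 and 24.3 FPKM (log2 fold change 0.91 ± 0.26 SE, adjusted p = 0.0214). Without MLg control replicate 1 or 2, or MLg SHHN replicate 1 or 3, its adjusted p was between 0.0586 and 0.0805. In NIH-3T3 it had -0.09 ± 0.26 (adjusted p = 0.832). Abca1, the sterol exporter that LXR induces when sterols accumulate, had 0.17 in NIH-3T3 (adjusted p = 0.575) and -0.31 in MLg (adjusted p = 0.313). It was at 0.184 ± 0.113 FPKM in NIH-3T3 controls and 1.74 ± 0.562 FPKM in MLg controls (SD, n = 3 each).

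The difference between the lines in their response was tested as an interaction, the NIH-3T3 fold change minus that of MLg. Of 34 genes, 4 had a lower value in NIH-3T3 (Idi1, Cyp51, Elovl6 and Scd1) and 1 a higher value (Scap), against 5.95% and 7.48% of all tested genes and 13.4% in all, so the count is near the background. The differences were -1.15 ± 0.34 SE for Idi1 (adjusted p = 0.0417), -0.93 ± 0.28 for Cyp51 (adjusted p = 0.0411) and -1.01 ± 0.27 for Elovl6 (adjusted p = 0.0251). For Scd1 the difference was -0.95 ± 0.29 (adjusted p = 0.0422), and for Scap it was 0.71 ± 0.17 (adjusted p = 0.0147). A negative sign was found for 16 of 18 sterol enzymes and 8 of 9 fatty acid enzymes, against 6477 of all 12379 tested genes. Hmgcs1 had -0.84 (adjusted p = 0.0531, 0.0251 with the replicate block). Leaving out NIH-3T3 SHHN replicate 1 raised the count of lower values from 4 to 16, and leaving out NIH-3T3 control replicate 2 raised it to 8. Leaving out NIH-3T3 control replicate 3, NIH-3T3 SHHN replicate 2 or 3, MLg control replicate 1 or MLg SHHN replicate 3 gave 0. The count was 2 without replicate 1 of the NIH-3T3 controls or of MLg SHHN, and 1 without replicate 2 of either MLg group.

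Without ligand, 14 of the 34 tested genes differed in level between the lines, a smaller share than the 50.1% of all tested genes. In NIH-3T3 controls 11 of the 34 genes were higher than in MLg controls and 3 were lower (Scap, Ebp and Abca1). Of all tested genes, 24.4% were higher and 25.7% lower. Cyp51 was 79.0 ± 8.49 FPKM in NIH-3T3 and 14.5 ± 3.91 FPKM in MLg (SD, n = 3 each), a ratio of means of 5.45 (log2 difference 2.44 ± 0.19 SE, adjusted p = 1.92e-07). The lowest NIH-3T3 control was above the highest MLg library, with or without SHHN. Scd1 was 55.8 ± 12.6 and 20.5 ± 2.44 FPKM (1.40 ± 0.20, adjusted p = 5.75e-05), and Acss2 was 7.66 ± 0.242 and 3.35 ± 0.664 FPKM (1.10 ± 0.14, adjusted p = 1.45e-05), again with n = 3 each.

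Smaller differences in the same direction were called for Hmgcs1 (0.68), Sqle (0.64), Tm7sf2 (0.64), Mvd (0.63), Elovl6 (0.61), Msmo1 (0.59), Insig1 (0.56) and Srebf2 (0.42). Without MLg control replicate 1, only Hmgcs1 and Sqle of these 8 kept the call, and the other 6 had adjusted p of 0.0522 to 0.190. Scap was lower in NIH-3T3, at 26.9 ± 2.58 against 64.1 ± 8.16 FPKM (SD, n = 3 each; -1.23 ± 0.12 SE, adjusted p = 1.43e-06). Ebp was lower (-0.65, adjusted p = 0.00502). Abca1 was also called lower, but it passed the filter only through MLg, with at most 0.320 FPKM in any NIH-3T3 library, so its call rests on that filter, and its log2 difference moved between -2.74 and -1.19 with the pseudocount. Without MLg control replicate 1 the count of higher genes was 5, and without NIH-3T3 control replicate 1 or 3 it was 7. The MLg controls also enter the MLg response, so the level and response comparisons share them.

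**Figure D4:**
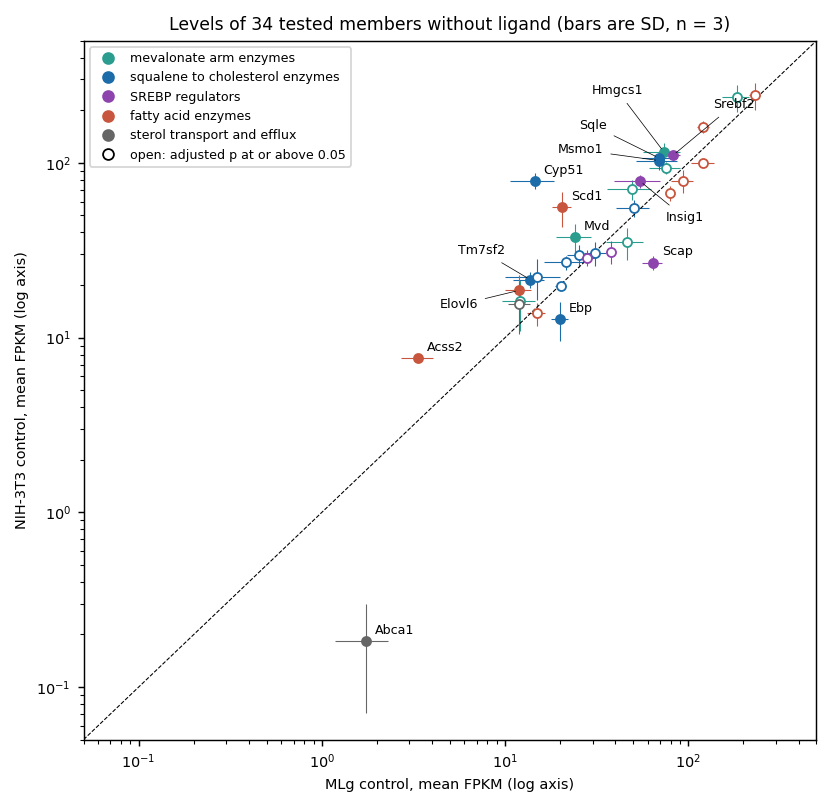
Mean FPKM of the 34 tested genes in NIH-3T3 controls (y axis, log) against MLg controls (x axis, log), bars SD of 3 libraries, coloured by role and filled where the adjusted p is below 0.05. Cyp51 and Scd1 lie above the dashed line of equality and Scap, Ebp and Abca1 below it.

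Genes next to the pathway were read from 6 lists. Their counts stand against 16.6% of all tested genes called higher and 14.8% lower in NIH-3T3, and 12.8% and 10.0% in MLg. Counts of 1 or 2 genes in a list are near or below these shares. In the isoprenoid branch, which draws farnesyl pyrophosphate away from sterols, 0 of 11 genes changed in NIH-3T3 by limma (0 higher and 1 lower at an unadjusted p below 0.05) and 1 of 11 rose in MLg. That gene was Pdss1, which builds the ubiquinone tail (0.76, adjusted p = 0.0210). Fntb, a farnesyltransferase subunit, had 0.41 in MLg (adjusted p = 0.0562), and Fnta and Dhdds had -0.38 and 0.24 in NIH-3T3 (adjusted p = 0.0759 and 0.121). Among 11 genes of SREBP cleavage and sterol-regulated degradation, 1 rose and 2 fell in NIH-3T3, and 1 rose and 1 fell in MLg. Erlin1 (-0.68) and Pgrmc1 (-0.61) were lower in NIH-3T3. In MLg, Tmem97, an SREBP target that binds sterols, went from 24.8, 27.8 and 25.9 FPKM to 63.9, 45.6 and 57.0 FPKM (1.06 ± 0.15 SE, adjusted p = 0.000175). Mylip, the LXR-induced ligase that degrades lipoprotein receptors, fell in MLg (-0.82, adjusted p = 0.000289).

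Sterol storage, transport and oxysterol genes had 13 tested of 15, with 1 higher and 2 lower in NIH-3T3 and 1 higher and 5 lower in MLg. Lbr, a lamina protein with sterol reductase activity, rose in both lines (0.75 in NIH-3T3, adjusted p = 0.00053, and 0.99 in MLg, adjusted p = 5.95e-05). Npc2, which hands lysosomal cholesterol to the export machinery, was 125, 154 and 141 FPKM in NIH-3T3 controls and 101, 75.7 and 90.9 FPKM with SHHN (-0.66, adjusted p = 0.000981). Cyp27a1, which makes an oxysterol, fell in MLg from 1.17, 1.33 and 0.988 FPKM to 0.583, 0.197 and 0.515 FPKM (-0.86, adjusted p = 0.00232). Of 6 tested genes of LXR and its partners, limma called 0 in either line. At an unadjusted p below 0.05, 1 was higher in NIH-3T3 and 2 were lower in MLg. The smallest p in NIH-3T3 were those of Abca7 (0.31, adjusted p = 0.0881) and Rxra (0.20, adjusted p = 0.184). In MLg they were those of Rxrb (-0.33, adjusted p = 0.128) and the LXR gene Nr1h2 (-0.31, adjusted p = 0.130).

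Among 21 tested genes of fatty acid supply, activation and esterification, 2 rose and 0 fell in NIH-3T3, and 3 rose and 3 fell in MLg. These counts are near or below the shares of all tested genes given above. Mid1ip1, a partner that promotes acetyl-CoA carboxylase polymerisation, went from 8.87, 9.04 and 8.85 FPKM to 35.2, 35.6 and 34.5 FPKM in NIH-3T3 (1.92 ± 0.12 SE, adjusted p = 5.02e-08). In MLg it went from 36.2, 47.8 and 35.5 FPKM to 60.0, 72.1 and 67.6 FPKM (0.74 ± 0.12, adjusted p = 0.000439). Groups were separate in both lines. Elovl5, which elongates polyunsaturated fatty acids, rose in NIH-3T3 (0.80, adjusted p = 0.00139), and Acsl3, which activates fatty acids, rose in MLg (0.86, adjusted p = 0.00558).

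Genes of mitochondrial fatty acid oxidation fell in 5 of 14 cases in NIH-3T3 and in 2 of 14 in MLg, with 0 higher in either line. Of all tested genes, 14.8% were called lower in NIH-3T3 and 10.0% in MLg, so the MLg count is near the background. Cpt1a, the gatekeeper that malonyl-CoA inhibits, went from 82.0, 72.7 and 87.2 FPKM to 22.3, 48.9 and 38.8 FPKM in NIH-3T3 (-1.19 ± 0.22 SE, adjusted p = 0.000828). In MLg it went from 67.8, 50.8 and 57.3 FPKM to 24.1, 25.0 and 21.7 FPKM (-1.29 ± 0.22, adjusted p = 0.000581). All SHHN libraries were below all controls in both. Acadm, a medium-chain dehydrogenase, fell in NIH-3T3 (-0.56, adjusted p = 0.00232), and Acads, a short-chain one, fell in MLg (-0.53, adjusted p = 0.0201).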

How the data were processed

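RNA of 12 samples was sequenced, and the authors deposited 1 table of FPKM values, not counts. Per the submitters' processing notes, bcl2fastq, TopHat2 2.0.12 and Cufflinks 2.2.1 were used with the mm10 build; the annotation, and whether the libraries kept strand, are not given in the sources used here. The depth per library is therefore unknown: in 66 library pairs, values up to 0.1 FPKM showed no common step (at most 14.9% of ratios in 1 bin of 2%), so whole reads could not be recovered. Reads of close copies or overlapping genes may be shared.

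One entry without values was left out. Genes with at least 0.5 FPKM in 3 or more libraries were tested on log2(FPKM + 0.5) with limma 3.58.1 (R 4.3.3) in 1 fit of all 4 groups, with an intensity trend and Benjamini-Hochberg adjustment over all 12379 genes, threshold 0.05. The script was tested on simulated data. The 4 contrasts set SHHN libraries against vehicle libraries within a line, then 1 response against the other, then the vehicle libraries of both lines. Same-numbered MLg libraries deviated together (correlations 0.132, 0.157 and 0.241), and NIH-3T3 libraries did not (-0.000703, -0.101 and 0.0269), so blocked values are given beside MLg results whose call they change. Alternatives changed the pseudocount, filter, scaling, variance model and libraries.

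Members and lists were chosen with earlier results of these data known. All 35 members are named, and from each neighbouring list the 2 genes with the smallest p per line. Promoter windows came from RefSeq tables.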

Additional observations from a re-analysis of the deposited data

Results flagged for a closer look

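The response to SHHN differed between the lines, by limma's interaction test, in 5 of the 34 tested genes, a count near the background, since 13.4% of all tested genes were called in that contrast. The NIH-3T3 log2 fold change minus that of MLg was -0.925 for Cyp51 (adjusted p = 0.0411), where every NIH-3T3 SHHN library was below the controls and every MLg SHHN library was above them. It was -1.15 for Idi1 (adjusted p = 0.0417), -1.01 for Elovl6 (adjusted p = 0.0251) and -0.950 for Scd1 (adjusted p = 0.0422). It was 0.708 for Scap (adjusted p = 0.0147). Of these, Scap lost the call in 1 of 21 alternatives, without both NIH-3T3 libraries numbered 2 (adjusted p = 0.0511). Elovl6 lost it in 6 of the 21, Idi1 in 10, Cyp51 in 11 and Scd1 in 12.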

How the results depend on the processing

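No fold change among called members reversed. In NIH-3T3, Fads2 and Insig2 were called under all 22 alternatives. In MLg, 11 of 20 calls held under all 22 (Acaca, Acat2, Dhcr7, Elovl6, Fads2, Fasn, Hmgcs1, Idi1, Insig2, Lss and Sqle). None of the 5 differences between lines held under all 21, and 8 of 14 differences between controls held under all 20. The count of NIH-3T3 members called higher was 1, and was 2 with quantile normalization, 2 with the replicate block (Scap, adjusted p = 0.0475, beside Fads2) and 3 without both NIH-3T3 libraries numbered 2. The block took the MLg count from 18 to 17. The interaction count of lower members, 4, was 1 with no filter and 2 with quantile normalization, and the count of higher members, 1, was 0 without both NIH-3T3 libraries numbered 2. Leaving out 1 library at a time gave 1 to 4 higher and 1 to 4 lower members in NIH-3T3, 10 to 21 higher and 1 to 2 lower in MLg, 0 to 16 lower and 1 higher in the interaction, and 5 to 13 higher and 3 to 4 lower between controls; the cause was not tested. Over all genes in MLg, the split of 1580 higher and 1238 lower became 1476 and 1588 with quantile normalization and 1470 and 1434 with median-ratio scaling. Fitting each line alone called 22 MLg members higher, and 1182 genes lower in NIH-3T3 instead of 1826. The depth of the libraries is unknown, and 3 libraries per group limit the precision.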

Other observations

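A pair of sterol handling genes, chosen after their values were seen, differed strongly between the lines without ligand. Apoe, the main sterol carrier that many fibroblasts secrete, was 1.73, 3.67 and 1.22 FPKM in NIH-3T3 controls and 41.3, 21.1 and 14.4 FPKM in MLg controls. Cyp7b1, an oxysterol hydroxylase, was listed at 0 in all 6 NIH-3T3 libraries and was 4.61, 3.91 and 6.15 FPKM in MLg controls.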
